A study of Mus musculus with 6 samples.

Results

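Surface mucous cells, also called pit or foveolar cells, line the stomach lumen and its pits. They coat it with a gel of the mucin Muc5ac together with small secreted proteins of the trefoil and gastrokine families, and they are shed and replaced quickly from stem cells deeper in the gland. Besides mucus genes, these cells express a pair of calpains, Capn8 and Capn9. Calpains are calcium-dependent cysteine proteases, and in mice Capn8 and Capn9 form a complex known as G-calpain, whose loss leaves the gastric mucosa more easily injured by ethanol. The genes described here were listed by name as genes of this cell type, with earlier results of these data known. Of 10 genes listed, 9 were measured among 19919 genes on the array, namely Muc5ac, Gkn1, Gkn2, Psca, Vsig1, Ctse, Foxq1, Capn8 and Capn9. Tff1 was not analysed here.

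The samples were RNA from the dissected gastric corpus of wildtype Balb/c females, 8 to 12 weeks of age. In the treated group of 3 arrays, mice drank dexamethasone, a synthetic glucocorticoid, in their water at 50 mg per litre for 3 days, with a fresh solution on day 2, and the control group of 3 arrays came from untreated mice. The labels call the 3 arrays of each group biological replicates and do not say whether an array holds 1 animal or a pool. Every level below is the authors' log2 expression value, made with RMA (robust multi-array average), so a difference of 1 is a doubling, and each change is relative to the bulk of genes on the array. In whole tissue, fewer cells of a type and less RNA per cell cannot be told apart. The array medians lay between 7.94 and 7.98. As a check of the treatment, Fkbp5, a classic target of the glucocorticoid receptor, rose by 1.88 on the log2 scale (limma adjusted p = 0.0151).

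Under dexamethasone the gastric calpain genes fell, and no change of the mucus genes passed the test. Capn9 was 1.70-fold lower and Capn8 1.64-fold lower. The remaining 7 members did not pass the threshold of 0.05 on limma's adjusted p, and their median log2 change was -0.068, against -0.74 for the 2 calpains. Of the 9 measured members, 2 were lower, 0 were higher and 7 did not pass. Over all genes 1.84% passed, 1.04% lower and 0.798% higher. At an unadjusted p under 0.05, used below to describe lists, 4 of the 9 members were lower and 0 higher, against 7.14% and 5.97% of all genes. Leaving out control replicate 2 or 3, or dexamethasone replicate 1 or 2, left Capn9 alone past the threshold, and leaving out dexamethasone replicate 3 added Muc5ac. The former fits called between 88 and 178 of all genes and the latter 543, against 367 with all arrays. The median log2 change of the members was -0.11 and that of all genes 0.0023. When each array was centred on its pan-epithelial markers, a scaling chosen after seeing the data, the members' median was 0.087. That centring takes the same value, the marker mean's change of -0.20, from every gene's change. The members therefore keep their place relative to all genes. On the deposited scale the members' median was -0.24 without control replicate 2 and -0.23 without dexamethasone replicate 3. The 3 dexamethasone values lay below all 3 control values in 4 members (Capn9, Capn8, Muc5ac and Ctse), which was true of 9.46% of all genes, and above them in 0 members, against 8.84% of all genes.

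**Figure D1:**
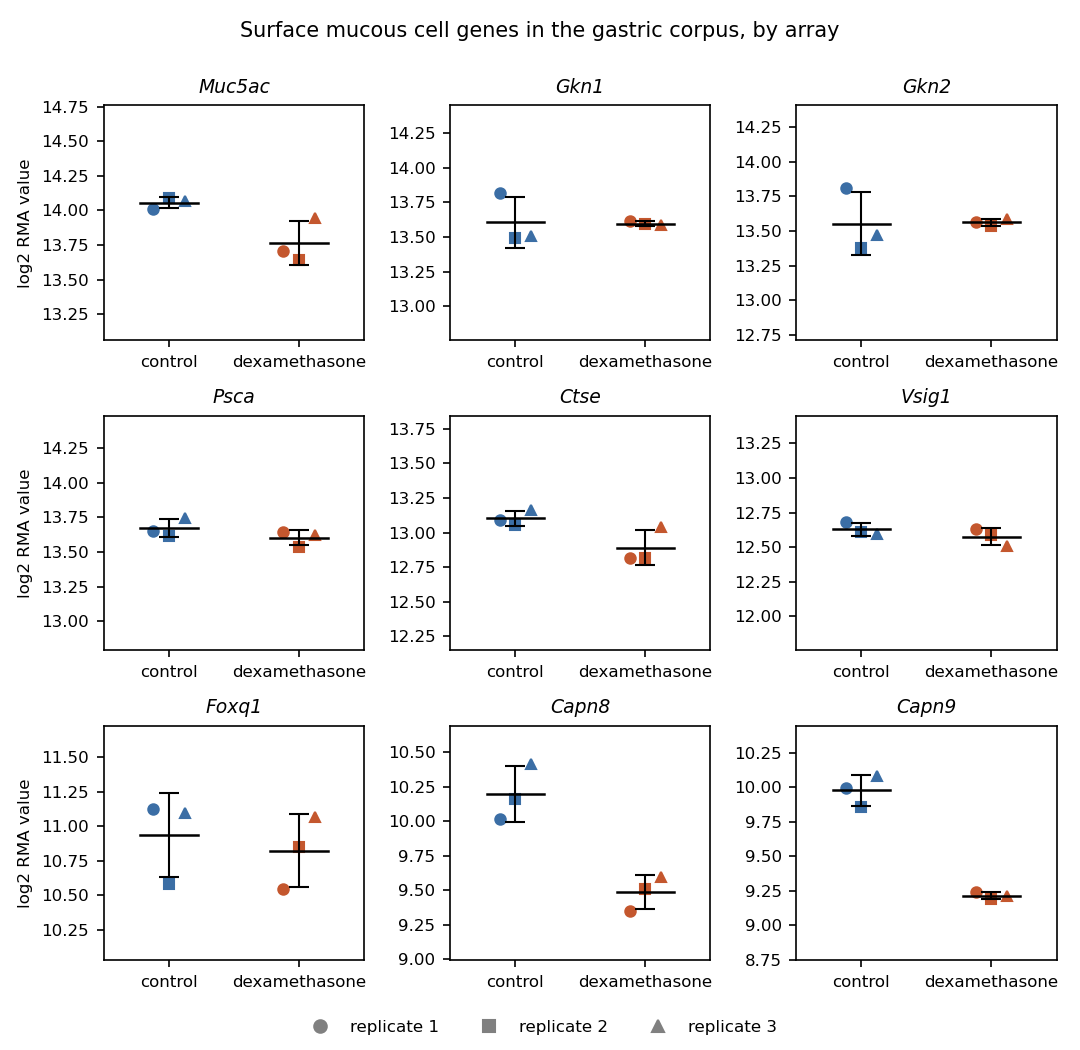
log2 RMA value of each of the 9 measured members on each array, with controls in blue and dexamethasone in orange. Marker shapes give the replicate number, which the labels do not describe as a pairing. Horizontal lines are group means and bars 1 SD (n = 3). Every panel spans the same range on the log2 scale. Capn8 and Capn9 separate by more than their spread, Muc5ac and Ctse separate narrowly, and the other 5 overlap.

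Capn9 gave the tightest separation. Its values were 9.99, 9.86 and 10.08 in control replicates 1, 2 and 3 and 9.24, 9.19 and 9.21 in dexamethasone replicates 1, 2 and 3. The treated arrays lay within a narrow band, well below the lowest control. The log2 change was -0.76 (SE 0.072, n = 3 per group, 95% confidence interval -0.93 to -0.60, limma adjusted p = 0.00352), the 43rd smallest p among all genes. This call held without each of the 6 arrays in turn, with adjusted p values up to 0.0278 and log2 changes from -0.82 to -0.71.

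Capn8, the partner of Capn9 in G-calpain, was more variable. It stood at 10.02, 10.16 and 10.41 in control replicates 1, 2 and 3 and at 9.35, 9.51 and 9.60 in dexamethasone replicates 1, 2 and 3. The groups did not overlap, and control replicate 3 was the highest array. The log2 change was -0.71 (SE 0.11, 95% confidence interval -0.97 to -0.45, limma adjusted p = 0.0262). The call was lost without any of control arrays 2 (adjusted p = 0.0697) and 3 (0.0917) or treated arrays 1 (0.115) and 2 (0.122), while the log2 change stayed between -0.80 and -0.60. Over the 6 arrays Capn8 and Capn9 correlated at r = 0.94. After each group's mean was removed r was 0.34, so the likeness comes mostly from the difference between the groups.

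The sequences before the starts of these calpain genes are shown because the genes fell together. They run from 250 bases upstream to 50 bases downstream of the start in the RefSeq table of build GRCm38.p6, written 5′ to 3′ on the gene's strand, which is the plus strand for both (chr1:182564757-182565056 for Capn8 and chr8:124575861-124576160 for Capn9). Capitals mark the forkhead core TGTTTA, searched on both strands like the GATA factor site AGATAA and AGAACA, a half-site of the glucocorticoid response element.
Capn8: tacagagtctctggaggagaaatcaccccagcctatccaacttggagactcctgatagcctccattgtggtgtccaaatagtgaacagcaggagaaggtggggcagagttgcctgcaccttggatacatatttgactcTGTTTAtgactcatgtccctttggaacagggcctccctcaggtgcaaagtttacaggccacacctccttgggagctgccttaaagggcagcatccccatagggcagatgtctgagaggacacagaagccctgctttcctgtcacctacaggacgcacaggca
Capn9: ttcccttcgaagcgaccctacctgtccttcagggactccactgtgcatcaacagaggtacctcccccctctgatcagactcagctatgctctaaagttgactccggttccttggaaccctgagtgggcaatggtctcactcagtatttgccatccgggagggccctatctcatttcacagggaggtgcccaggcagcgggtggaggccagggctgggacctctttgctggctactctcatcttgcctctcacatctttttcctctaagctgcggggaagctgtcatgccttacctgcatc
The Capn8 window holds a single forkhead core on the gene's strand, beginning 112 bases before the start, and neither of the other motifs. The Capn9 window holds none of the 3. Of 32851 promoter windows of the same length in the table, 13.4% hold the forkhead core, 11.2% the GATA site and 19.0% the half-site.

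The other calpains were compared to see whether the fall was shared by the family. Among 14 measured genes for other calpains, their small subunits and the calpain inhibitor calpastatin, 1 fell, 0 rose and 13 did not pass. Over all genes 1.04% fell and 0.798% rose. The calpain list had a median log2 change of -0.066. The one that fell was Capn13, a calpain that lies outside the listed members. Its control values were 9.73, 9.67 and 10.002 in replicates 1, 2 and 3 and its dexamethasone values 8.85, 8.97 and 9.03. These groups were separated by more than either group's range, and the gene was 1.80-fold lower (log2 change -0.85, SE 0.098, limma adjusted p = 0.00785). Without dexamethasone replicate 2 its adjusted p was 0.0523 and no gene of the list was called, and with the smooth muscle covariate described below the log2 change was -0.56 (adjusted p = 0.303).

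The other calpain-system genes of smallest p did not pass. Capns1, the regulatory small subunit of the classical calpains, had a log2 change of 0.23 (adjusted p = 0.317). Capn5, a calpain without the calcium-binding domain that pairs with that subunit, was at -0.39 (adjusted p = 0.0883), with all 3 dexamethasone values below the controls. Capn2, the catalytic subunit of m-calpain and the protein-coding gene next to Capn8 in the GRCm38.p6 gene order, was named after its values were seen. It stood at 9.56, 9.62 and 9.66 in control replicates 1, 2 and 3 and at 9.81, 9.81 and 9.66 in dexamethasone replicates 1, 2 and 3. All 3 treated values were above the controls, narrowly so for replicate 3 (log2 change 0.15, adjusted p = 0.409).

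**Figure D2:**
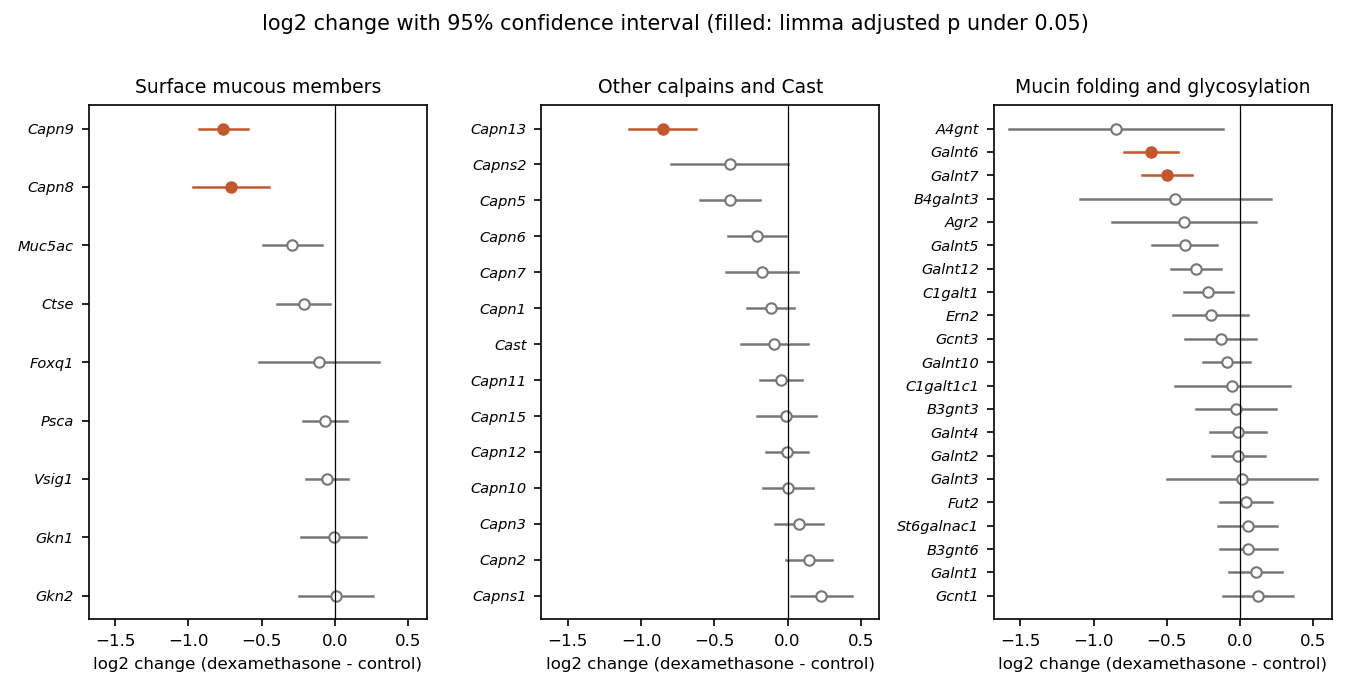
log2 change, dexamethasone minus control, for the 9 measured members (left), 14 other calpain-system genes (middle) and 21 genes of mucin folding and glycosylation (right). Points are estimates and bars 95% confidence intervals from limma (n = 3 per group), and filled points have an adjusted p under 0.05 over all 19919 genes. The filled points are Capn9 and Capn8 on the left, Capn13 in the middle and Galnt6 and Galnt7 on the right, all below 0.

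Among the secreted products, Muc5ac is the gel-forming mucin that gives the surface coat its bulk. Its values were 14.01, 14.09 and 14.07 in control replicates 1, 2 and 3 and 13.71, 13.64 and 13.94 in dexamethasone replicates 1, 2 and 3. Dexamethasone replicate 3 lay just below the controls and the other treated arrays further down. The log2 change of -0.29 (SE 0.087, 95% confidence interval -0.49 to -0.089) did not pass over all genes (unadjusted p = 0.0109, limma adjusted p = 0.190). Without dexamethasone replicate 3 the change was -0.38 and the adjusted p 0.0386.

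Gkn1 encodes a secreted gastrokine with a BRICHOS domain, and Gkn2 a gastrokine whose human counterpart forms a dimer with the trefoil protein TFF1. Gkn1 was at 13.82, 13.49 and 13.51 in control replicates 1, 2 and 3 and at 13.62, 13.59 and 13.58 in dexamethasone replicates 1, 2 and 3. Gkn2 was at 13.81, 13.38 and 13.47 in the controls and at 13.57, 13.53 and 13.58 in the treated arrays, in the same order. For each of them control replicate 1 was the highest array, the other controls were the lowest, and the treated arrays fell in between with hardly any spread.

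The log2 change was -0.0087 for Gkn1 (95% confidence interval -0.23 to 0.21, limma adjusted p = 0.983) and 0.0080 for Gkn2 (-0.25 to 0.26, adjusted p = 0.987). Neither sign is stable: without control replicate 1 the change was 0.099 for Gkn1 and without control replicate 2 it was -0.079 for Gkn2. Both intervals leave out a fall as large as that estimated for either calpain. The difference between members was not tested. Gkn1 and Gkn2 followed each other across arrays more closely than any other of the 36 pairs of members (r = 0.97 over 6 arrays, 0.98 with group means removed). They are direct neighbours in the GRCm38.p6 gene order, followed by Gkn3.

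Their promoters are shown beside those of the calpains, as the windows of the neighbouring pair with the smallest log2 changes. The windows lie at chr6:87350866-87351165 on the minus strand for Gkn1 and at chr6:87373115-87373414 on the plus strand for Gkn2, and are written 5′ to 3′ on the gene's strand, with the GATA factor site AGATAA in capitals.
Gkn1: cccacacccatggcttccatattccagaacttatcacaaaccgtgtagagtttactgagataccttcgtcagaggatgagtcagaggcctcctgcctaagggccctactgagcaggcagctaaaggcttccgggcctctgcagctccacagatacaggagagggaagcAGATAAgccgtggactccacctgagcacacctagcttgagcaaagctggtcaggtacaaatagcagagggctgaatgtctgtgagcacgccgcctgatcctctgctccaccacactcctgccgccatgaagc
Gkn2: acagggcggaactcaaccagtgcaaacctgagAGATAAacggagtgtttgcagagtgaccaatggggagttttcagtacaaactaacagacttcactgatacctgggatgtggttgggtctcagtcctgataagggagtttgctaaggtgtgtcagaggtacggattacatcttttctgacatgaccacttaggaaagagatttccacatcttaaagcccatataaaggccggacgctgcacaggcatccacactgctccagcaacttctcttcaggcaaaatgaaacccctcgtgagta
Each window holds a single AGATAA, beginning 82 bases before the start in Gkn1 and 218 bases before it in Gkn2, and neither the forkhead core nor the glucocorticoid half-site. RefSeq windows were matched for 5 of the 9 members, the fifth being Vsig1, with 2 forkhead cores. The half-site was found in 0 of the 5.

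Psca and Vsig1 encode proteins of the cell surface. Psca is a small lipid-anchored protein of the Ly6 family, and Vsig1 an immunoglobulin-type junction protein whose loss in mouse embryos lets squamous epithelium form in the glandular stomach. Psca stood at 13.65, 13.62 and 13.74 in control replicates 1, 2 and 3 and at 13.65, 13.54 and 13.63 in dexamethasone replicates 1, 2 and 3. Vsig1 stood at 12.68, 12.61 and 12.59 in the controls and at 12.63, 12.59 and 12.51 in the treated arrays, in the same order. The groups overlapped for each gene.

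Psca had a log2 change of -0.068 (95% confidence interval -0.22 to 0.081, limma adjusted p = 0.732) and Vsig1 one of -0.054 (-0.20 to 0.090, adjusted p = 0.787). These were the narrowest intervals among the members, and each leaves out a fall of the size estimated for Muc5ac. When arrays were centred on the pan-epithelial markers the sign turned, to 0.13 for Psca and 0.14 for Vsig1, without passing the threshold. Of 13 other junction genes measured, 0 passed by limma, with 2 lower at an unadjusted p under 0.05, against 7.14% of all genes. Those of smallest p were Gpa33, an immunoglobulin-type surface protein, at -0.47 (adjusted p = 0.286), Cdh1, which encodes E-cadherin, at -0.18 (adjusted p = 0.313) and Cxadr at -0.16 (adjusted p = 0.423). Cdh1 and Epcam of this list are also counted among the pan-epithelial markers below.

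Ctse encodes cathepsin E, an aspartic protease kept inside the cell in endosomes. Its values were 13.09, 13.06 and 13.16 in control replicates 1, 2 and 3 and 12.82, 12.82 and 13.04 in dexamethasone replicates 1, 2 and 3. As in Muc5ac, dexamethasone replicate 3 lay just under the controls and replicates 1 and 2 further down. The log2 change of -0.21 (SE 0.078, 95% confidence interval -0.40 to -0.031) had an unadjusted p of 0.0273 and did not pass (limma adjusted p = 0.293). Ctse and Muc5ac correlated at r = 0.95 over the 6 arrays, and at 0.87 with group means removed.

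Other cathepsins and pepsinogens showed no common direction. Of 13 measured, 1 fell, 0 rose and 12 did not pass, against 1.04% lower and 0.798% higher over all genes. The list's median log2 change was -0.049. Ctss, a lysosomal cysteine protease of antigen-presenting cells, fell by 0.57 on the log2 scale (SE 0.10, limma adjusted p = 0.0381), or 1.49-fold. That call was lost without each array other than dexamethasone replicate 3, and under quantile normalization or the replicate block. With the smooth muscle covariate described below, Ctss was at -0.80 (adjusted p = 0.193). Ctsf and Ctsl, cysteine proteases of the lysosome, stood at 0.45 (adjusted p = 0.0948) and 0.32 (adjusted p = 0.232).

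Foxq1, a forkhead transcription factor that surface mucous cells of the mouse need for Muc5ac expression, varied most within groups. It was at 11.12, 10.58 and 11.09 in control replicates 1, 2 and 3 and at 10.55, 10.85 and 11.07 in dexamethasone replicates 1, 2 and 3. Control replicate 2 and dexamethasone replicate 1 were the lowest arrays, and the groups overlapped. The log2 change was -0.11 (95% confidence interval -0.52 to 0.30, limma adjusted p = 0.854), so a fall as large as that of Muc5ac lies inside its interval. Foxq1 ran against the squamous marker mean described below more closely than any other member (r = -0.87 over 6 arrays), and with that mean as a covariate its change was 0.10 (adjusted p = 0.734).

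Of 16 other transcription factors of the gastric epithelium, 0 passed by limma, and 1 was lower at an unadjusted p under 0.05, a share close to the 7.14% of all genes. That gene was Grhl2, a regulator of epithelial junctions, with a log2 change of -0.22 (adjusted p = 0.227). Klf4, a factor of differentiated surface epithelium, was at -0.19 (adjusted p = 0.394) and Sox2, a factor of foregut identity, at 0.17 (adjusted p = 0.414). The median of the list was -0.034.

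The machinery that folds and glycosylates mucins was examined as the pathway in which Muc5ac is made. Of 21 measured genes, 2 fell, 0 rose and 19 did not pass, against 1.04% lower and 0.798% higher over all genes. At an unadjusted p under 0.05, 6 of the 21 were lower, against 7.14% of all genes. The median log2 change was -0.092. Galnt6 and Galnt7 encode polypeptide N-acetylgalactosaminyltransferases, which add the first sugars of mucin O-glycans.

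Galnt6 was at 8.34, 8.26 and 8.22 in control replicates 1, 2 and 3 and at 7.53, 7.69 and 7.77 in dexamethasone replicates 1, 2 and 3, 1.53-fold lower (log2 change -0.61, SE 0.079, limma adjusted p = 0.0127). Galnt7 was at 10.68, 10.71 and 10.82 in the controls and at 10.22, 10.15 and 10.34 in the treated arrays, 1.41-fold lower (adjusted p = 0.0200 for a log2 change of -0.50, SE 0.074). Neither gene's groups overlapped. Galnt12, another transferase of the family, was at -0.30 (adjusted p = 0.111). Galnt6 lost its call when control replicate 3 or dexamethasone replicate 2 was left out (adjusted p = 0.0697 and 0.0742). Galnt7 lost its own when any of control arrays 2 (0.0596) and 3 (0.118) or treated arrays 1 (0.0985) and 2 (0.112) was left out. Leaving out dexamethasone replicate 3 gave 4 calls in the list. With the smooth muscle covariate described below neither gene passed, Galnt6 at -0.42 (adjusted p = 0.384) and Galnt7 at -0.29 (adjusted p = 0.531).

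Among the 11 other mucin, trefoil and gastrokine genes, 1 rose, 0 fell and 10 did not pass, against 0.798% higher and 1.04% lower over all genes. The list's median log2 change was 0.0028. The gene that rose was Muc13, a membrane-bound mucin. Its values were 7.03, 6.91 and 7.04 in control replicates 1, 2 and 3 and 7.74, 7.76 and 8.36 in dexamethasone replicates 1, 2 and 3. It was 1.95-fold higher (log2 change 0.96, SE 0.16, limma adjusted p = 0.0315). That call was lost when any array other than dexamethasone replicate 3, the highest one, was left out, with adjusted p values from 0.0537 to 0.150. With the smooth muscle covariate described below Muc13 was at 1.70 (adjusted p = 0.0163). With arrays centred on the pan-epithelial markers, where 5488 of all genes were called higher, it was at 1.16 (adjusted p = 0.00611). The trefoil genes Tff2 of mucous neck cells and Tff3 of goblet cells stood at -0.61 (adjusted p = 0.130) and 0.21 (adjusted p = 0.225). Gkn3, the gene beside Gkn1 and Gkn2, was named after its values were seen and spread widely, from 7.93 to 9.36 in the controls and from 7.71 to 8.96 in the treated arrays.

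**Figure D3:**
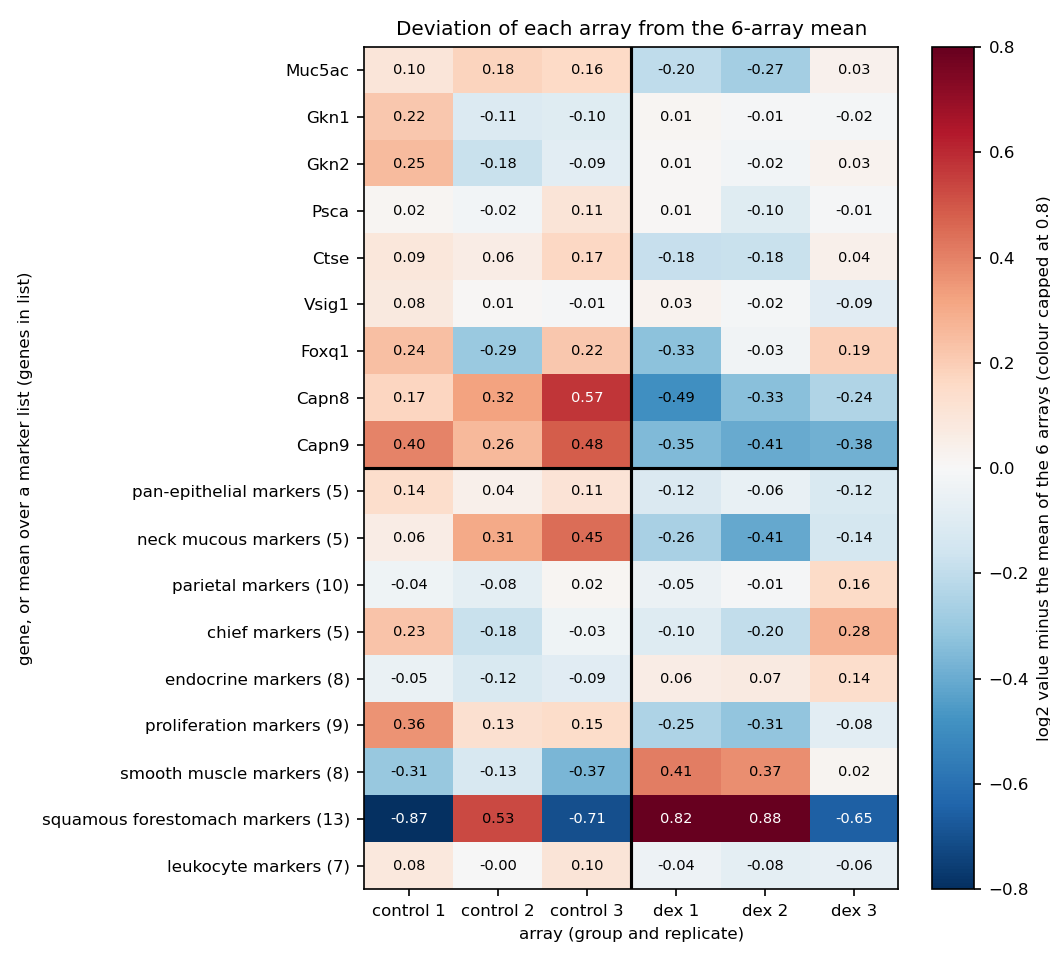
Deviation of each array from the mean of the 6 arrays, on the log2 scale, for the 9 measured members (upper rows) and for the mean over each marker list (lower rows, number of genes in brackets). Colours are capped at 0.8. Capn9 and Capn8 are above 0 in the 3 controls and below 0 in the 3 dexamethasone arrays. So are the pan-epithelial, neck mucous and proliferation means. The endocrine and smooth muscle means have the opposite signs on all 6 arrays, and the squamous mean takes both signs in each group.

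Markers of other tissue layers and cell types also differed between arrays. They are given because the means of some lists, though not all, separated the groups as the calpains did. For the counts of called markers below, the shares over all genes were 1.04% lower and 0.798% higher. Smooth muscle markers averaged 11.03, 11.21 and 10.97 in control replicates 1, 2 and 3 and 11.75, 11.71 and 11.36 in dexamethasone replicates 1, 2 and 3. In that list 2 of 8 genes rose, Actg2 and Cnn1, and all 8 were higher at an unadjusted p under 0.05, as were 5.97% of all genes. With the smooth muscle mean as a covariate, an alternative chosen after seeing the data, Capn9 had a log2 change of -0.65 (limma adjusted p = 0.162) and Capn8 one of -0.43 (adjusted p = 0.548). Muc5ac was then at -0.024, Gkn2 at 0.15 and Vsig1 at -0.16, with adjusted p values of 0.982, 0.891 and 0.762. That mean does not overlap between the groups, so muscle content and treatment cannot be told apart in this fit.

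Pan-epithelial markers were lower on the treated arrays. The means over 5 genes were between 12.24 and 12.34 in the controls and between 12.08 and 12.14 in the treated arrays. Of the 5, 0 passed by limma. At an unadjusted p under 0.05, 4 were lower, against 7.14% of all genes, led by Krt8 (log2 change -0.33, adjusted p = 0.106). Relative to this mean Capn9 was at -0.57 (adjusted p = 0.00542) and Capn8 at -0.51 (adjusted p = 0.0274), with Muc5ac at -0.094 and Ctse at -0.016. Gkn1 and Gkn2 were at 0.19 and 0.21, neither past the threshold. The centring takes the same -0.20 from every gene's change, so larger falls such as those of the calpains had to stay below 0. In that fit 5657 of all genes were called, against 367 on the deposited scale. The marker mean does not overlap between the groups, so epithelial content and treatment cannot be told apart here.

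The squamous markers of the forestomach, the neighbouring non-glandular part, differed inside each group. Their mean over 13 genes was 8.30, 9.70 and 8.46 on the control arrays 1, 2 and 3 and 9.99, 10.04 and 8.52 on the treated arrays 1, 2 and 3. Control replicate 2 thus resembled the first and second treated arrays, and the third treated array the other controls. Only Krt6a passed, with a log2 change of 0.61 (limma adjusted p = 0.0362). At an unadjusted p under 0.05, 3 of the 13 were higher and 0 lower, against 5.97% and 7.14% of all genes. The change was positive in 12 genes and negative in 1, and the list mean was 0.70 higher in the treated group. With this mean as a covariate Capn9 was at -0.72 (adjusted p = 0.00555) and Capn8 at -0.66 (adjusted p = 0.0355). Muc5ac and Ctse, both lowest in dexamethasone replicates 1 and 2, correlated with the squamous mean at r = -0.67 and -0.83 over the 6 arrays. For Capn8 and Capn9 r was -0.53 and -0.54. The part of the squamous mean in the values of these genes was not tested further.

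Mucous neck cells are the other mucus-secreting cells of the gland. Their markers had a negative log2 change in 5 of 5 genes, with 0 past the threshold by limma. At an unadjusted p under 0.05, 2 of the 5 were lower, against 7.14% of all genes. The list's means ran from 10.26 to 10.65 in the controls and from 9.79 to 10.06 in the treated arrays. Of these markers, Muc6, Tff2 and Gkn3 are also counted among the other mucins above, and A4gnt in the glycosylation list. Proliferation markers fell in 3 of 9 genes (Mki67, Kif11 and Mcm6), and 6 of the 9 were lower at an unadjusted p under 0.05, as were 7.14% of all genes. Their means were 8.14 to 8.37 in the controls and 7.69 to 7.92 in the treated arrays. Parietal markers passed in 0 of 10 genes and chief cell markers in 0 of 5. At an unadjusted p under 0.05, 1 parietal marker was higher and 1 chief marker lower, against 5.97% and 7.14% of all genes. The chief markers Pga5, which was the lower one, and Pgc are also counted among the pepsinogens above. Chga was the single endocrine marker of 8 that rose. At an unadjusted p under 0.05, 4 of the 8 were higher, against 5.97% of all genes. Means over the endocrine list were 9.74 to 9.81 in the controls and 9.92 to 10.003 in the treated arrays. Ptprc was the single leukocyte marker of 7 that fell. At an unadjusted p under 0.05, 2 of the 7 were lower, against 7.14% of all genes. Means over the leukocyte list were 7.93 to 8.03 in the controls and 7.85 to 7.89 in the treated arrays. Markers of the antrum and duodenum passed in 0 of 6 genes, 0 of them at an unadjusted p under 0.05. The part of any of these in the fall of the calpains was not tested.

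Brightness limits what can be read from the mucus genes. The brightest probe set of each array lay between 14.22 and 14.32. Muc5ac was at most 0.62 below that maximum on any array, Psca 0.68, Gkn1 0.75 and Gkn2 0.86, whereas Capn8 and Capn9 were never closer to it than 3.84 and 4.17. Whether the signal of the brightest probe sets was compressed was not tested, and the small changes of these genes are given with that limit.

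Profiles over the 6 arrays were compared among genes with an SD of at least 0.2. Predicted genes, RIKEN clones, olfactory receptors and pseudogenes were left out by name. Of 2190 other genes, those most like Capn9 were Sh2d4a (r = 0.998), Pla2g10 (r = 0.997), Fads3 (r = 0.996), H2-Aa (r = 0.994) and Mogat1 (r = 0.993). Pla2g10 encodes a secreted phospholipase A2, Mogat1 an enzyme of triglyceride synthesis and H2-Aa a chain of the class II histocompatibility molecules. Capn8 ranked 138th in that order. For Capn8 the closest were Rpp25 (r = 0.994), Tmc5 (r = 0.993), Igha (r = 0.992), B3galt5 (r = 0.990) and Macc1 (r = 0.990), of which B3galt5 encodes a galactosyltransferase and Igha the heavy chain of immunoglobulin A. For Vsig1 they were, of 2191 genes, H2-Q8 (r = 0.97), Oog2 (0.94), Tm4sf5 (0.92), Stk38l (0.91) and Crip1 (0.91). The values of Vsig1 spanned only 0.17 over the 6 arrays, so Vsig1 itself falls below the SD asked of the compared genes. Its correlations therefore rest on small differences between arrays. With 6 arrays in 2 groups, any gene that differs between the groups with little spread is like any other such gene, so these names describe profiles only.

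Across the 36 pairs of members the median correlation over the 6 arrays was 0.36, and 29 pairs were above 0. The 7 pairs above 0.8 comprised Gkn1 with Gkn2 and the 6 pairs among Muc5ac, Ctse, Capn8 and Capn9, the 4 members whose groups did not overlap. With group means removed, these 6 correlations ran from -0.059 (Muc5ac with Capn9) to 0.87 (Muc5ac with Ctse). Between the gastrokines and that group the correlations ran from -0.22 (Gkn2 with Capn8) to 0.069 (Gkn1 with Capn9).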

How the data were processed

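RNA of the gastric corpus was measured on single-colour Affymetrix arrays, 3 control and 3 dexamethasone. The deposited table holds log2 expression values for 20985 probe sets, made by the authors with RMA, per the submitters' processing notes, which also name R 2.9 and limma. The sources used here name no filter and no chip definition. RMA normally equalises the arrays' distributions and compresses dim probe sets. The number of arrays limits the precision.

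The platform annotation gave 1 symbol to 19921 probe sets and did not list 1064. The probe set of highest mean was kept per symbol, leaving 19919 genes. These were tested two-sided in R 4.3.3 by limma 3.58.1 (lmFit, eBayes), with no filter on level and Benjamini-Hochberg adjustment over all genes. The threshold was 0.05 on the adjusted p. Every adjusted p is limma's, and SEs and intervals are its moderated ones. With 3 against 3, p = 0.1 is the smallest an exact permutation test allows, and none was run. Close paralogs may share probes, so the split of signal among calpain or mucin genes is uncertain.

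The members and lists were chosen with earlier results of these data known. The text names every member, each gene past the threshold in a list or, where fewer than 3 passed, the 3 of smallest p in lists described in full, and the 5 most correlated with Capn9, Capn8 and Vsig1. Other names are said to be chosen after their values were seen. Some genes of the lists, Tff1 among them, are not reported here. Protein sequences were not used here. The scripts were tested on simulated data for this comparison with 19919 genes.

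The labels do not say that equal replicate numbers pair arrays. The correlations of deviations from the group means were -0.28, 0.35 and 0.23 for equal numbers. For unequal numbers they ran from -0.49 to 0.38. These values cannot show whether the numbers pair animals or batches. The alternatives tried were the replicate block, 2 further normalizations, leaving out the dimmest 40% of genes, array weights, averaged probe sets, unnamed probe sets kept, a variance prior with trend and robust options, squamous content as a covariate and each array left out, with 2 marker-based alternatives added after seeing the data.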

Additional observations from a re-analysis of the deposited data

How the results depend on the processing

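Capn9 kept its sign and its call under the 9 planned processing alternatives and without each array in turn. Capn8 kept its sign throughout and its call under the same 9 alternatives, and lost it without 4 of the arrays. Array weights, a setting that called 1776 of all genes against 367, gave 4 lower members with Muc5ac and Ctse among them (adjusted p = 0.0175 and 0.0298), a median of -0.19 over the members and a log2 change of 0.055 for Gkn1. It also gave 2 lower and 1 higher among the other calpains, 2 lower among the mucins, 6 lower in mucin glycosylation, 1 lower among transcription factors (median -0.12), 2 lower and 2 higher among the cathepsins and 1 lower among junction genes. With arrays centred on the pan-epithelial mean, where 5488 of all genes were called higher, the members' median was 0.087, with log2 changes of 0.19 for Gkn1, 0.13 for Psca, 0.087 for Foxq1 and 0.14 for Vsig1. With the smooth muscle mean as a covariate, where 69 of all genes were called, 0 members were lower by limma and their median was 0.022, with 0.63 for Foxq1, 0.031 for Gkn1, 0.022 for Psca and 0.077 for Ctse. The squamous covariate gave 0.033 for Gkn1, 0.10 for Foxq1 and 1 higher cathepsin. Gkn2 was at -0.0085 with arrays centred on their median and at -0.029 after quantile normalization. The cathepsin list had 0 lower calls after quantile normalization. With the dimmest 40% of genes left out, which removed Muc13, 0 mucins were higher and the other calpains had a median of -0.12. The cause of the remaining shifts was not tested.

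With the replicate block, 220 of all genes were called against 367. Capn9 stayed past the threshold (adjusted p = 0.0150), as did Capn8 (0.0164), and the cathepsin list had 0 lower calls. The arrays share only a number, so the block has no basis in the labels.

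With each array left out in turn, the number of calls over all genes also moved, from 367 with all arrays. It was 465, 178 and 92 without control replicates 1, 2 and 3, and 118, 88 and 543 without dexamethasone replicates 1, 2 and 3. In these fits the lower members numbered 1 to 3 and the members' median ran from -0.24 to -0.071. The lower calls ranged from 0 to 3 among the other calpains, 0 to 1 among the mucins, 0 to 4 in glycosylation, 0 to 1 among cathepsins and 0 to 1 among junction genes, and the higher calls from 0 to 1 among both mucins and cathepsins. Gkn1 ranged from -0.066 to 0.099, Gkn2 from -0.079 to 0.14 and Foxq1 from -0.29 to 0.027.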
